A study of Homo sapiens with 6 samples.

Results

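The 10 heat shock protein genes described here were chosen by symbol and measured in SZ95 cells, an immortalised human sebaceous gland line. They are HSP90AA1 and HSP90AB1 (cytosolic HSP90), DNAJA1, DNAJB1 and DNAJB4 (HSP40 or J-domain proteins), HSPH1 and BAG3 (partners of HSP70), HSPD1 and HSPE1 (the mitochondrial chaperonin) and HSPB1 (a small heat shock protein). All 10 symbols were found among the 58735 genes of the deposited table, and all 10 passed the filter of a mean of at least 1 FPKM over the 6 libraries that left 12177 genes to test. FPKM is the number of fragments per kilobase of a gene's exons, scaled to the library's total. The series asks what the channel TRPV3 does in sebocyte inflammation. It compared 3 libraries of wild-type SZ95 cells transfected with a mock plasmid and 3 of SZ95 cells transfected with a plasmid that overexpresses TRPV3, both labelled 24 h, and its design text calls the replicates biological. Both groups are 1 cell line, and the promoter that drives TRPV3 and the content of the mock plasmid are points not given in the sources used here.

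Chaperones bind unfolded proteins and help them fold, hold them soluble or hand them on for degradation. HSP70 does this in cycles that J-domain proteins start, by delivering a client and triggering ATP hydrolysis, and that nucleotide exchange factors such as HSPH1 and BAG3 end. HSP90 takes over clients that are already partly folded, many of them kinases and steroid receptors. When unfolded proteins build up, the transcription factor HSF1 is released from its chaperones, forms trimers and binds heat shock elements, which are repeats of the unit GAA and its reverse complement TTC spaced by a pair of bases.

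The members' promoters hold such repeats more often than promoters at large, and they are shown because the members are usually described as a set with this element in common. Since the genes were chosen by symbol from such a set, the shares below are background and not a result of these libraries. RefSeq promoter windows (GRCh38.p14, 250 bases before to 50 bases after a transcription start) were found for all 10 genes, 17 windows in all. They were searched for the 2-unit repeats GAANNTTC and TTCNNGAA, each its own reverse complement, and for the 3-unit repeats GAANNTTCNNGAA and TTCNNGAANNTTC, each the other's reverse complement. Every 3-unit match also counts as a pair of overlapping 2-unit matches. A 2-unit repeat stood in 8 of the 17 windows (47.1%), against 13.5% of 35116 windows of the same length, and a 3-unit repeat in 4 of the 17 (23.5%), against 0.49%. Counted by gene, 7 of 10 members had a 2-unit match in at least 1 window (16.2% of 27305 genes) and 4 had a 3-unit match (0.608%). Those 4 were HSP90AA1, HSP90AB1, DNAJA1 and HSPD1, while DNAJB1, DNAJB4 and HSPB1 had 2-unit matches only. The members had more windows per gene than all genes did, which raises a count by gene. BAG3, HSPH1 and HSPE1 had no match in the windows searched, which says only that these exact letters are not there. The letters below are printed 5′ to 3′ on the gene's strand, with matches in capitals. Not every match is shown, and that of DNAJB4 is left out.
DNAJB1, 227 bases that end before its annotated exon, chr19:14518421-14518647, minus strand: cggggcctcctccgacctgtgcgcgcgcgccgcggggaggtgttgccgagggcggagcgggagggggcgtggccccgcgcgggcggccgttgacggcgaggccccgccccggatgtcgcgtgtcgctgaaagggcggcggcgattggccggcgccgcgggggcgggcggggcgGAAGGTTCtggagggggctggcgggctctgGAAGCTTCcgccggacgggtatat
DNAJA1, chr9:33025064-33025093, plus strand: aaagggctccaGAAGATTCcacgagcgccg
DNAJA1, chr9:33025268-33025296, plus strand: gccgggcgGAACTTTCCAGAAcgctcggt
HSP90AA1, chr14:102087112-102087140, minus strand: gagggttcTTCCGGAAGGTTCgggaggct
HSP90AB1, chr6:44247770-44247798, plus strand: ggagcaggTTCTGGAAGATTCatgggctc
HSP90AB1, chr6:44247823-44247851, plus strand: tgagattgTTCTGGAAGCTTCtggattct
HSPD1, chr2:197500062-197500090, minus strand: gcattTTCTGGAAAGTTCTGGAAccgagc
HSPB1, chr7:76302480-76302509, plus strand: ccttaacgagaGAAGGTTCcagatgagggc

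In DNAJB1 the matches begin 77 and 47 bases before the start used, at position 14518397. At another DNAJB1 start, 14517937, a match begins at base 2 of the transcript, and at the start 14529271 there was none. HSP90AA1 has its 3-unit match 88 bases before the start at 102087044, and HSP90AB1 has a pair of them, 165 and 112 bases before the start at 44247943. Of the 250 bases before these starts, 147 in HSP90AA1 and 77 in HSP90AB1 are annotated as exon of the same gene. The windows of another HSP90AA1 start (102139749) and of other HSP90AB1 starts (44246194 and 44247101) held no match. In DNAJA1 the single 2-unit match lies 198 bases before the start at 33025273, and the 3-unit match begins at base 4 of the transcript. The HSPD1 run is an unbroken chain of 2 overlapping 3-unit matches. It lies between the HSPD1 start used here, at 197499840, and the HSPE1 start at 197500379, which are 539 bases apart, at 228 bases from the first and 294 bases from the second. Both annotated genes span it. The 250 bases before that HSPD1 start are all annotated as HSPD1 exon, and another HSPD1 start, at 197500274, lies on the far side of the run. The HSPE1 window stops short of it.

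The libraries were checked first. They held between 16.0 and 18.4 M reads recovered from the FPKM values, and TRPV3 was at 0.404 ± 0.0400 FPKM (SD, n = 3) in the mock and 648 ± 103 FPKM in the TRPV3 libraries. A pair of libraries stood apart. TRPV3 replicate 1 had a log2 deviation from the gene means that fell by 0.0804 per doubling of gene length, against slopes between 0.00231 and 0.0344 in the other 5, and mock replicate 3 listed 34467 genes above 0, against 22311 to 23072 in the others. Of the sebocyte markers listed, KRT7 (532 FPKM on average) and SCD (223 FPKM) were high, while AWAT2 was at 0 and MC5R and AWAT1 were at 0.00480 and 0.00638 FPKM. The keratinocyte list summed to between 158 and 190 FPKM per library, mostly KRT5 (155 FPKM on average). KRT10 was separate between groups, at 16.0, 18.7 and 13.5 FPKM with mock and 21.1, 19.1 and 19.4 FPKM with TRPV3 (adjusted p = 0.755 by limma), and LOR was at 0. The fibroblast list summed to between 2.05 and 2.91 FPKM, nearly all COL1A1 (2.29 FPKM), and the immune list to between 1.10 and 1.80 FPKM, nearly all CD14 (1.53 FPKM). DCN (0.00645 FPKM), COL3A1 (0.00677 FPKM), PTPRC (0.00798 FPKM) and CD3E (0.00322 FPKM) were near 0. The part of other cell types in the results was not tested.

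None of the 10 heat shock genes passed the test between plasmids, while the level of most was slightly higher with TRPV3. By limma with Benjamini-Hochberg adjustment over all 12177 genes, 0 of 10 were called higher (background 0.0411%, or 5 genes) and 0 of 10 lower (background 0.0%). Before adjustment, limma gave p under 0.05 to 3 of 10 on the higher side (background 3.28%), DNAJB1, BAG3 and DNAJA1, and to 0 of 10 on the lower side (background 1.21%). All 10 fitted log2 fold changes were above 0, as were 53.0% of all genes tested; without TRPV3 replicate 1 there were 8 of 10 (background 53.5%). Their median was 0.17, where the median was 0.01 over all genes tested. The median was 0.09 over the 2500 genes averaging 20 FPKM or more, a level that 9 of the 10 reach. Most of those 2500 genes were above 0 too, with quartiles of -0.00586 and 0.183. Without TRPV3 replicate 1 the median of the 10 was 0.0907. Fold changes here are fitted log2 differences of FPKM + 1, TRPV3 plasmid minus mock, and understate the change of low genes.

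The groups did not overlap, with TRPV3 on top, in 7 of the 10 genes, an order that 9.49% of all genes and 17.0% of those averaging 20 FPKM or more showed. The opposite order was seen in 0 of 10 (background 5.39%). Leaving out libraries cannot undo such an order and only adds genes to it: the share of all genes was 14.0% without TRPV3 replicate 1 and 19.1% without mock replicate 3 as well, and the count among the 10 was 7 in both cases. The order depended on the scaling. It held for 5 of the 10 with the gene-length trend removed (8.27% of all genes), for 2 of the 10, DNAJA1 and HSPD1, with TPM scaling (4.92%), and for 1 of the 10, DNAJA1, with quantile normalization (7.29%). In bulk RNA, more RNA per cell and more cells that hold it cannot be told apart.

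**Figure D1:**
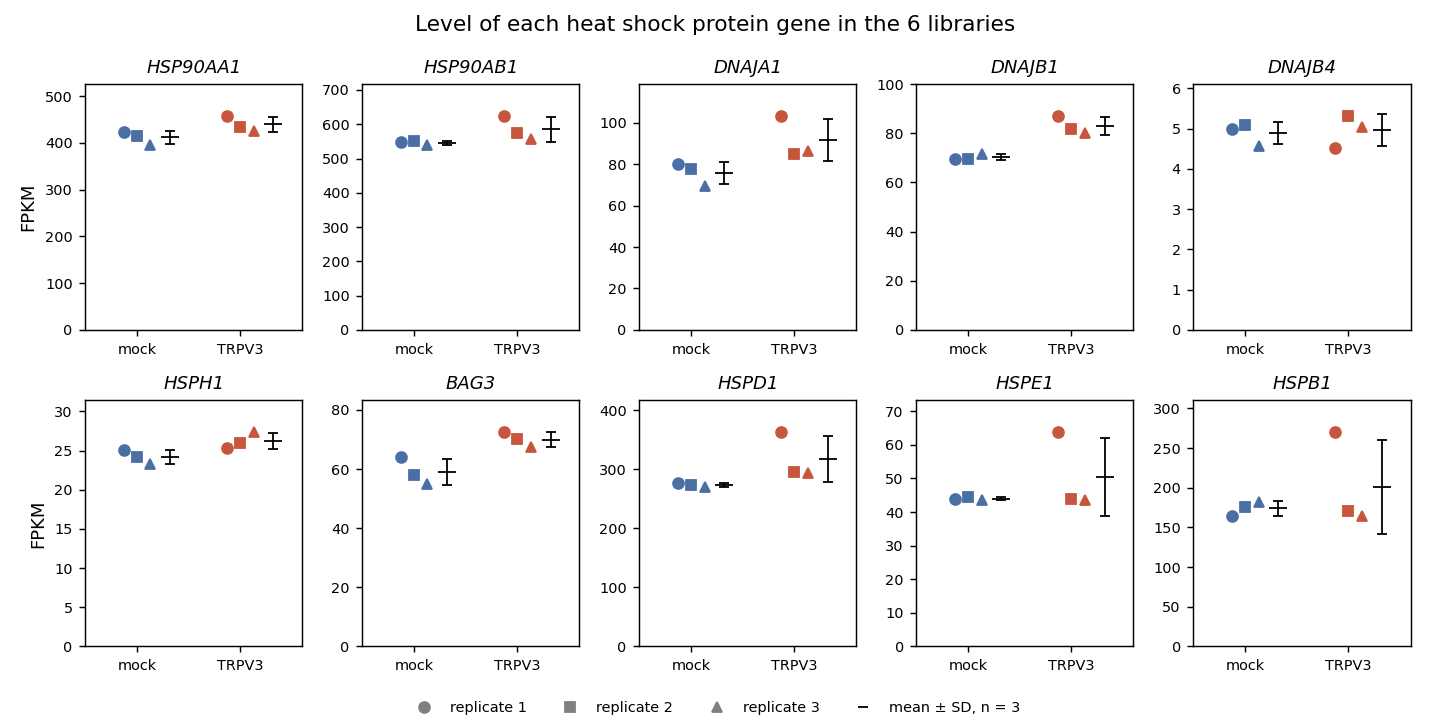
FPKM of the 10 heat shock genes (y axis of each panel, starting at 0) in mock and TRPV3 libraries; symbols mark the replicate, and the black bar is the mean ± SD (n = 3). In 7 panels all TRPV3 points lie above all mock points, and in HSPB1 and HSPE1 only TRPV3 replicate 1 does.

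The 2 cytosolic HSP90 genes were the most abundant of the 10 and differed least between groups in relative terms, DNAJB4 aside. HSP90AB1 (ENSG00000096384, chromosome 6, 44246166 to 44253888, plus strand, hg38), the constitutive HSP90 beta, was at 547, 551 and 539 FPKM in mock replicates 1 to 3 and at 625, 573 and 557 FPKM in TRPV3 replicates 1 to 3. The groups did not overlap, and TRPV3 replicate 1 was the highest library. The fitted log2 difference was 0.10 (0.10 SE, adjusted p = 0.755 by limma), and 0.05 without that library. HSP90AA1 (ENSG00000080824, chromosome 14, 102080738 to 102139699, minus strand), the stress-inducible HSP90 alpha, was at 424, 415 and 396 FPKM with mock and 458, 434 and 426 FPKM with TRPV3. Here too the lowest TRPV3 library lay just above the highest mock library. The fitted log2 difference was 0.09 (0.09 SE, adjusted p = 0.755 by limma), with an interval in folds of 0.920 to 1.24. Both HSP90 differences turned negative under quantile normalization, to -0.14 for HSP90AA1 and -0.17 for HSP90AB1. That of HSP90AA1 was -0.00403 under TPM scaling, where the median of all genes tested was -0.0687.

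The proportion of the inducible to the constitutive HSP90 gene was compared within each library. HSP90AA1 per HSP90AB1, on the FPKM scale, was 0.775, 0.753 and 0.734 with mock and 0.733, 0.757 and 0.765 with TRPV3. The ranges overlap almost wholly (0.754 ± 0.0204 and 0.751 ± 0.0166, SD, n = 3; exact two-sided permutation p = 0.9, where 3 against 3 cannot go below 0.1). Reads of close copies can be divided only with uncertainty. Pseudogenes of HSP90AA1 held between 0.314% and 0.445% as many reads as the gene, and those of HSP90AB1 between 0.215% and 0.293%.

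The J-domain genes divided into DNAJA1 and DNAJB1, with differences among the highest of the 10, and DNAJB4, with almost none. DNAJB1 (ENSG00000132002, chromosome 19, 14514770 to 14529770, minus strand), the main heat-inducible HSP40 partner of HSP70, was at 69.7, 69.5 and 71.6 FPKM with mock and 87.1, 81.7 and 80.1 FPKM with TRPV3. The mock libraries lay close together and all 3 TRPV3 libraries stood clear of them, by more than the spread within either group. DNAJB1 was 18.1% higher in the mean (log2 fold change 0.24, SE 0.08, 95% interval in folds 1.04 to 1.33), with the lowest unadjusted limma p of the 10 (0.0159) and a limma adjusted p of 0.755. Without TRPV3 replicate 1 the log2 fold change was 0.20 and the limma adjusted p = 0.250. The groups overlapped under TPM scaling (log2 fold change 0.14) and under quantile normalization (0.11). DNAJB1 shares 211 exonic bases with TECR on the opposite strand, which held between 2276 and 3314 reads per library beside 4139 to 5645 for DNAJB1.

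DNAJA1 (ENSG00000086061, chromosome 9, 33025211 to 33039907, plus strand), a farnesylated J-domain co-chaperone of HSP70, was at 80.1, 77.6 and 69.6 FPKM with mock and 103, 85.0 and 86.4 FPKM with TRPV3. The groups did not overlap. The mean difference was widened at both ends, by the high TRPV3 replicate 1 and the low mock replicate 3. Its fitted difference (log2) was 0.27, the largest of the 10 (SE 0.11, 95% interval in folds 1.01 to 1.43, adjusted p = 0.755 by limma), and it was 0.18 without TRPV3 replicate 1 and 0.12 without both libraries. DNAJB4 (ENSG00000162616, chromosome 1, 77979175 to 78017964, plus strand), a J-domain protein of the same subfamily as DNAJB1, was the least abundant of the 10. It was at 4.98, 5.10 and 4.57 FPKM with mock and 4.52, 5.32 and 5.05 FPKM with TRPV3. The groups overlapped, and TRPV3 replicate 1 was the lowest library of the 6. The fitted log2 difference of 0.02 (0.09 SE, adjusted p = 0.938 by limma) has an interval of 0.881 to 1.16 in folds.

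Both HSP70 nucleotide exchange genes had TRPV3 libraries above the mock libraries, BAG3 by more than HSPH1. BAG3 (ENSG00000151929, chromosome 10, 119651370 to 119677819, plus strand) also links HSP70 to small heat shock proteins and to selective autophagy. It was at 63.9, 58.1 and 55.1 FPKM with mock and 72.4, 70.1 and 67.4 FPKM with TRPV3. Here the TRPV3 libraries were close to each other and the mock libraries were the more spread. BAG3 was 18.6% higher in the mean (log2 fold change 0.24, SE 0.09, 95% interval in folds 1.03 to 1.36, adjusted p = 0.755 by limma), and the value was 0.22 without TRPV3 replicate 1, 0.17 without mock replicate 3 as well, and 0.15 with the length trend removed. HSPH1 (ENSG00000120694, chromosome 13, 31134974 to 31162388, minus strand), also called HSP105 or HSP110, was at 25.1, 24.2 and 23.3 FPKM with mock and 25.3, 26.0 and 27.3 FPKM with TRPV3. The gap between groups was narrow and TRPV3 replicate 1 was the lowest TRPV3 library, unlike in the other genes with separate groups. Its fitted difference (log2) was 0.11 (0.07 SE, adjusted p = 0.755 by limma), and it was larger with the length trend removed (0.18).

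**Figure D2:**
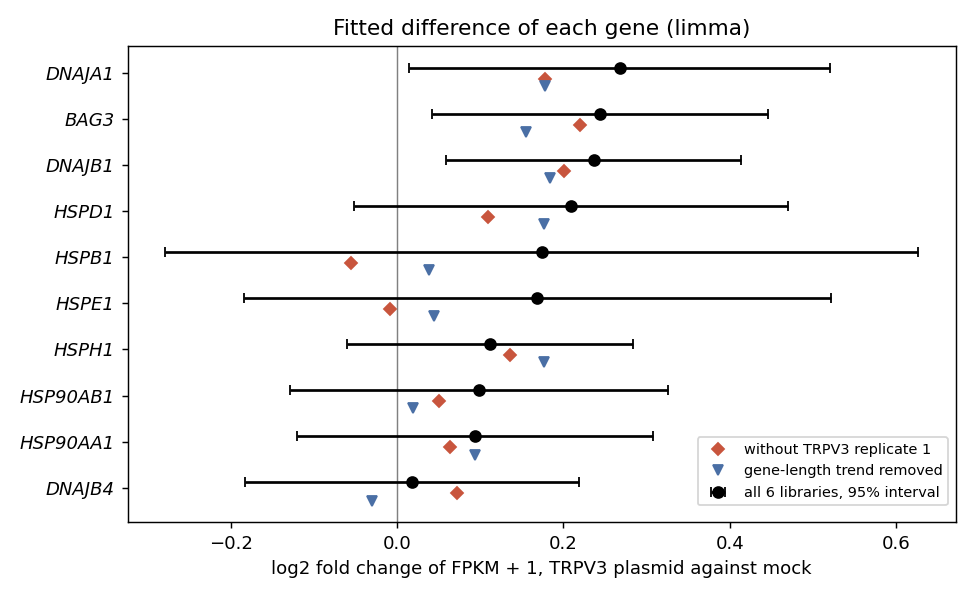
Fitted log2 fold change of FPKM + 1 (x axis, TRPV3 plasmid against mock) for each heat shock gene, with its 95% interval from limma (n = 3 per group); diamonds leave out TRPV3 replicate 1 and triangles remove the gene-length trend. The intervals of DNAJA1, BAG3 and DNAJB1 lie above 0 before adjustment over genes, and HSPB1 and HSPE1 are at -0.06 and -0.01 without TRPV3 replicate 1.

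Relative to TRPV3 replicates 2 and 3, TRPV3 replicate 1 was highest in the mitochondrial chaperonin pair and the small heat shock gene. Its ratio to their mean was 1.61 for HSPB1, 1.46 for HSPE1 and 1.23 for HSPD1, with DNAJA1 close at 1.21. HSPD1 (ENSG00000144381, chromosome 2, 197486581 to 197516737, minus strand), the HSP60 barrel, was at 276, 273 and 269 FPKM with mock and 363, 296 and 293 FPKM with TRPV3. TRPV3 replicates 2 and 3 were above every mock library by a small margin and replicate 1 by a wide one. The fitted log2 difference was 0.21 (0.11 SE, adjusted p = 0.755 by limma) and was 0.11 without TRPV3 replicate 1. HSPE1 (ENSG00000115541, chromosome 2, 197499994 to 197503457, plus strand), the HSP10 lid of that barrel, was at 43.9, 44.5 and 43.6 FPKM with mock and 63.7, 43.8 and 43.7 FPKM with TRPV3. TRPV3 replicates 2 and 3 lay within the mock range, and only replicate 1 was high. The fitted log2 difference of 0.17 (0.15 SE, adjusted p = 0.755 by limma) became -0.01 without it.

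HSPD1 per HSPE1 was 6.28, 6.13 and 6.18 with mock and 5.69, 6.75 and 6.71 with TRPV3, so that TRPV3 replicate 1 was below and the other TRPV3 libraries above the mock range (exact two-sided permutation p = 0.8). The pair's levels carry a limit of counting. The 2 genes share 281 exonic bases on opposite strands, HSPE1 shares 192 exonic bases with the read-through gene HSPE1-MOB4, and 1504 of its 1977 exonic bases are its own. HSPE1-MOB4 held between 0 and 2 reads per library. Pseudogenes of HSPE1, 26 in number, held between 1.16% and 2.45% as many reads as the gene, and the 17 of HSPD1 between 0.893% and 1.09%.

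HSPB1 (ENSG00000106211, chromosome 7, 76302544 to 76304295, plus strand) encodes HSP27, which binds unfolding proteins without ATP and acts on actin filaments. It was at 164, 176 and 181 FPKM with mock and 270, 170 and 164 FPKM with TRPV3. TRPV3 replicates 2 and 3 lay at or near the lower end of the mock range and replicate 1 far above it, the widest spread of the 10 (201 ± 59.4 FPKM, SD, n = 3). The fitted log2 difference of 0.17 (0.19 SE, adjusted p = 0.766 by limma) was -0.06 without TRPV3 replicate 1. Across the 6 libraries HSPB1 and HSPE1 had a Pearson r of 0.98, given as a description of points that share that library.

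The excess in TRPV3 replicate 1 was highest in the 2 shortest of the 10 genes. Its FPKM over the mean of TRPV3 replicates 2 and 3 was 1.61 for HSPB1 (1634 exonic bases), 1.46 for HSPE1 (1977 bases) and 1.21 for DNAJA1 (2730 bases). It was 0.949 for HSPH1, the longest of the 10 at 8390 bases. The members between them did not follow length in order. The ratio was 1.05 for BAG3 (2747 bases), 1.11 for HSP90AB1 (2980 bases), 1.08 for DNAJB1 (3672 bases), 0.873 for DNAJB4 (3783 bases), 1.23 for HSPD1 (4245 bases) and 1.07 for HSP90AA1 (5248 bases). Over all genes tested the median of that ratio was 1.23 below 1000 bases, 1.36 between 1000 and 2000, and 1.23 between 2000 and 3000. It was 1.08 between 3000 and 5000 bases, 0.893 between 5000 and 10000, and 0.712 from 10000 on. TRPV3 replicate 1 was the highest of the 6 libraries in 8 of the 10 genes, and mock replicate 3 the lowest in 7. With the length trend removed, the log2 fold changes were 0.04 for HSPB1, 0.04 for HSPE1 and 0.02 for HSP90AB1, while those of DNAJB1, DNAJA1, HSPD1 and HSPH1 were each 0.18. The part of RNA quality in these differences was not tested.

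**Figure D3:**
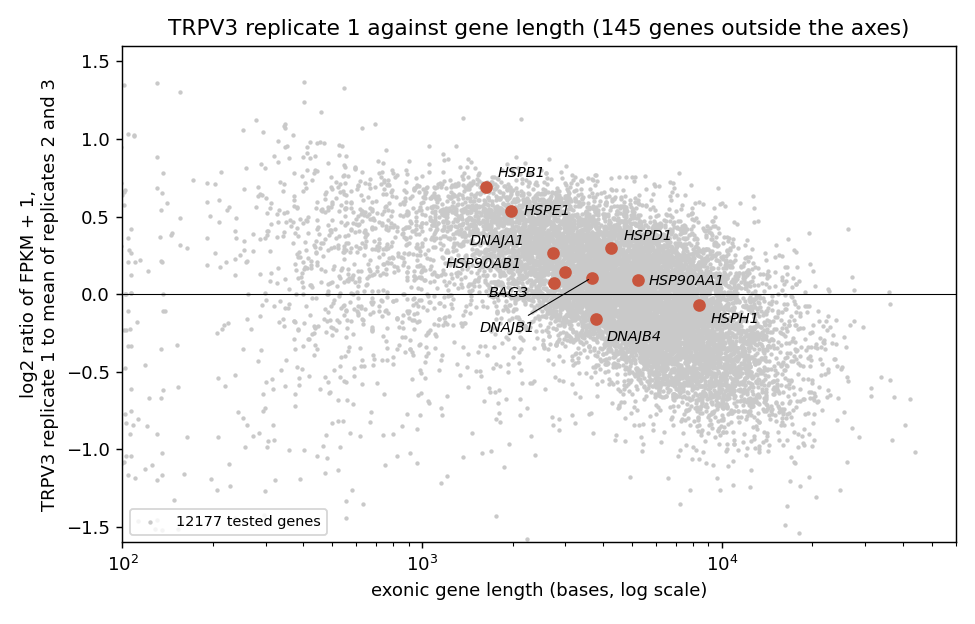
Log2 ratio of FPKM + 1 in TRPV3 replicate 1 to the mean of TRPV3 replicates 2 and 3 (y axis) against exonic gene length in bases (x axis, log scale), for 12177 tested genes (grey; 145 lie outside the axes) and the 10 heat shock genes (red). Genes longer than 5000 bases sit lower, and HSPB1 and HSPE1 are the highest of the 10.

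The HSP70 genes with which these co-chaperones work showed the only call among the pathway groups. Of 9 tested HSP70 family genes 1 passed, the strictly inducible HSPA6, at 0.792, 0.728 and 0.602 FPKM with mock and 12.6, 10.4 and 11.1 FPKM with TRPV3 (fitted difference 2.86, 0.10 SE, adjusted p = 7.11e-05 by limma). The near-identical inducible pair HSPA1A and HSPA1B had 0.44 each, with HSPA1A at 64.9 ± 0.738 and 88.9 ± 7.82 FPKM and HSPA1B at 36.8 ± 0.600 and 50.2 ± 0.987 FPKM (limma adjusted p = 0.396 and 0.260). HSPA1B passed without TRPV3 replicate 1 (adjusted p = 0.0336 by limma). HSPA8, constitutive and the most abundant gene of the HSP70 list, had 0.23, about the value of DNAJB1. HSPA5 was not in that list. The median of the 9 tested genes of the list was 0.12 (0.0590 without TRPV3 replicate 1). The differences between HSPA6 and the 10 genes were not tested.

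Groups that work beside HSP90 and the chaperonins had small positive medians and no call. Of 16 tested HSP90 co-chaperones 0 passed, 14 were above 0 (53.0% of all genes tested), and the median was 0.15 (0.0656 without TRPV3 replicate 1). STIP1, which bridges HSP70 and HSP90, was at 141 ± 9.30 and 156 ± 6.44 FPKM, and PTGES3, the p23 protein that binds closed HSP90, at 125 ± 1.04 and 139 ± 15.1 FPKM (SD, n = 3). HSP90B1, the HSP90 of the endoplasmic reticulum, had 0.35 and TRAP1, that of mitochondria, -0.000374, neither passing (limma adjusted p = 0.755 and 0.999). All 14 genes of the cytosolic chaperonin and its partner prefoldin were above 0 (53.0% of all genes tested), with a median of 0.16 and 0 passing. Most genes averaging 20 FPKM or more were above 0 too, with a lower quartile of -0.00586. Without TRPV3 replicate 1 the median of the 14 was 0.06, and some of them were just below 0, the lowest at -0.00813. The most abundant of the 14 were CCT7, at 176 ± 4.03 and 199 ± 31.5 FPKM, and CCT3, at 170 ± 6.86 and 191 ± 26.3 FPKM.

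The wider J-domain, exchange factor and mitochondrial groups had medians near that of all genes. Of 21 tested genes listed as other cytosolic and nuclear J-domain genes 0 passed, with 12 above and 9 below 0 and a median of 0.02. The compartment of each of these proteins was not checked. DNAJC5 was at 73.6 ± 3.08 and 69.5 ± 4.82 FPKM and DNAJC8 at 48.9 ± 1.98 and 55.6 ± 12.7 FPKM. Of 8 other HSP70 exchange factors 0 passed (median 0.04), HSPA4, a close relative of HSPH1, being at 67.1 ± 3.26 and 70.9 ± 1.61 FPKM and BAG6 at 35.1 ± 1.28 and 32.9 ± 2.43 FPKM. Mitochondrial chaperones and proteases had 0 of 15 passing and a median of 0.02, with PHB2, a prohibitin, at 105 ± 1.51 and 114 ± 16.4 FPKM and HSPA9, the mitochondrial HSP70 that hands proteins to HSPD1, at 73.9 ± 5.50 and 76.3 ± 1.35 FPKM.

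Of the other genes listed by symbol as small heat shock genes, only HSPB11 and HSPB8, the BAG3 partner, reached 1 FPKM. Their log2 fold changes were 0.23 and 0.09, with 0 of 2 passing. Whether HSPB11 belongs to that protein family was not checked. HSPB11 was at 25.4 FPKM in TRPV3 replicate 1 and at 16.9 and 15.7 FPKM in the other TRPV3 libraries, and its value was 0.02 without that library. The lens crystallin gene CRYAB had 7 reads in mock replicate 3, 7 in TRPV3 replicate 2, 1 in TRPV3 replicate 3 and 0 in the others, and CRYAA had 0 reads in every library. Among heat shock factors and regulators 0 of 5 passed. HSF1 itself was at 32.5 ± 1.78 and 34.5 ± 4.42 FPKM and HSBP1, a small binding partner of HSF1, at 16.3 ± 1.16 and 19.2 ± 3.10 FPKM. Of 8 tested genes of BAG3-linked selective autophagy 0 passed (median 0.06), with the ubiquitin ligase STUB1 at 22.6 ± 1.63 and 23.7 ± 5.25 FPKM and the autophagy receptor SQSTM1 at 18.7 ± 0.728 and 20.6 ± 0.499 FPKM.

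A list of 19 tested genes known as HSF1-dependent, with none of the 10 in it, had a median of 0.19, beside the 0.17 of the 10, and without TRPV3 replicate 1 these were 0.105 and 0.0907. In it 17 were above 0 (53.0% of all genes tested), 0 passed with all libraries (1, HSPA1B, without TRPV3 replicate 1), and in 10 the groups were separate with TRPV3 on top, an order seen in 9.49% of all genes and 17.0% of those averaging 20 FPKM or more. Most genes averaging 20 FPKM or more were above 0 too, with a lower quartile of -0.00586. The most abundant member of the list was HSPA8, at 294 ± 11.8 and 347 ± 31.7 FPKM (SD, n = 3). This list also holds HSPA1A, HSPA1B and several HSP90 co-chaperones, so that the groups are not separate evidence.

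**Figure D4:**
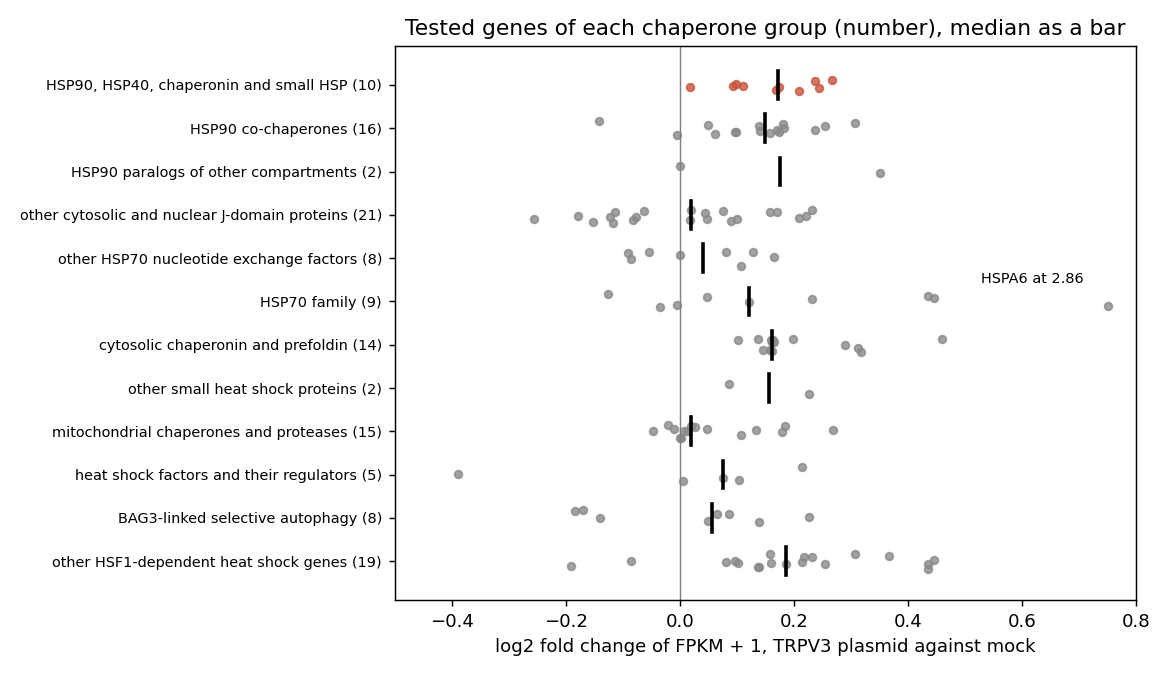
Log2 fold change of FPKM + 1 (x axis, TRPV3 plasmid against mock) of every tested gene, by chaperone group (y axis, number of tested genes in brackets), with the group median as a bar; HSPA6 lies beyond the axis and is drawn at its edge. The 10 heat shock genes (red) lie between 0.02 and 0.27.

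The genes whose profile over the 6 libraries was most like the mean standardised profile of the 10 were TFPI2, DDX5, FDPS, VRK1 and CCNC, with Pearson r between 0.993 and 0.996. TFPI2, the first of them, was at 28.5, 28.3 and 26.6 FPKM with mock and 37.7, 32.3 and 31.5 FPKM with TRPV3. The shared order has TRPV3 replicate 1 highest and mock replicate 3 lowest. With 6 libraries and 12177 genes such values are a description of order only.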

How the data were processed

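RNA of 6 SZ95 libraries was sequenced, 3 with a mock and 3 with a TRPV3 plasmid. Per the submitters' processing notes, reads were aligned with HISAT2 2.0.5 to hg38, with counting tool and strand not given in the sources used here. The authors deposited FPKM per gene and library. Multiplied by gene length, 100% of a library's values fell on whole numbers of 1 read (tolerance 0.02 reads), and these reads were used for depth. Replicates differed by more than sampling noise (chi-square over its degrees of freedom from 2.52 to 54.2). The pairs with TRPV3 replicate 1 had 46.6 and 54.2, and all other pairs lay between 2.52 and 7.03.

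Log2(FPKM + 1) of genes averaging 1 FPKM or more was tested with limma 3.58.1 (R 4.3.3; group as the only term, empirical Bayes with trend, Benjamini-Hochberg over all genes, adjusted p under 0.05). The test was tried on simulated data with the spread of the mock libraries alone and with changes larger than those fitted for the 10 genes. That trial does not show how often differences as small as theirs would pass. Whole-read alternatives used limma's voom. The members, gene lists and tests were chosen with earlier results of these data known. Named genes were the 10 members, HSPA6, HSPA1A and HSPA1B, up to 4 called members of each list or else its 2 most abundant, overlapping genes and pseudogenes, and the 5 genes with the most similar profile; CRYAB, CRYAA and the cell type markers shown were picked after their values were seen. A gene that this rule names is not reported here. Member coordinates and lengths were the same as in GENCODE 29; promoters came from RefSeq. Figures used matplotlib 3.10.9.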

Additional observations from a re-analysis of the deposited data

How the results depend on the processing

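With every alternative tried, 0 of the 10 genes were called in either direction, and the lowest limma adjusted p of any was 0.166 (DNAJB1, by voom without TRPV3 replicate 1, an alternative chosen after seeing the data). The median log2 fold change of the 10, 0.17 with all libraries, was 0.0747 under TPM scaling and 0.0469 under quantile normalization. Without TRPV3 replicate 1 and mock replicate 3 it was 0.0703. The median of all genes tested was 0.0119 with all libraries, and -0.0687, -0.00279 and -0.00252 in those settings, in the same order. Under TPM scaling HSP90AA1 and DNAJB4, at -0.00403 and -0.0613, were above the median of all genes. Genes with separate groups numbered 2 under TPM scaling and 1 under quantile normalization. Directions turned for HSP90AA1 (-0.00403 under TPM, -0.14 under quantile), HSP90AB1 (-0.17 under quantile), HSPB1 and HSPE1 (-0.0556 and -0.00893 without TRPV3 replicate 1, -0.0685 and -0.0218 by voom without it, -0.0245 and -0.0163 without that library and mock replicate 3) and DNAJB4 (-0.0613 under TPM, -0.0303 with the length trend removed, -0.000149 by voom, -0.0207 without mock replicate 3, -0.0245 without TRPV3 replicate 2). BAG3, DNAJA1, DNAJB1, HSPD1 and HSPH1 were above 0 under all 17 alternatives, with lowest values of 0.14, 0.12, 0.11, 0.00308 (quantile) and 0.0177 (TPM). The cause was not tested. Same-numbered samples did not deviate together (correlations of deviations between -0.272 and -0.0387, against -0.157 to 0.218 for unlike numbers). With deviations centred within groups of 3 libraries, these values cannot show whether same-numbered samples were handled together. With the replicate block 0 of the 10 were called and the median was 0.17, and 3 of all genes were called in place of 5; by voom without TRPV3 replicate 1 there were 69 higher and 3 lower. The log2 difference of the HSP90AA1 to HSP90AB1 ratio ran from -0.0239 to 0.0152 when 1 library was left out, and that of HSPD1 to HSPE1 from -0.00494 to 0.119. Over the same left-out libraries the fitted differences ran from -0.0245 to 0.0722 for DNAJB4, -0.0556 to 0.303 for HSPB1, -0.00893 to 0.258 for HSPE1 and 0.0907 to 0.26 for the median of the 10. The planned quasi-likelihood tests were not run, since the deposited unit is FPKM.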
